A study of Mus musculus with 2031 samples.

Results

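Wnt modulators and Wnt-responsive genes were followed across the cells of adult mouse brain that the study had sorted as astrocytes. They comprise 10 of the 49568 gene rows of the deposited count table. They were chosen by their measured levels in earlier work on these cells, in which Frzb, Sfrp1 and Dkk3 stood out in the astrocyte subtype AST4 and Daam2 in AST2. Levels by cell type and subtype are therefore given as a description, without a test. The cells came from C57BL/6J mice without any transgene or treatment at postnatal day 56. Cortical suspensions 1C and 2C were each made from 1 animal, and both animals were from the same litter. Hippocampal suspensions 1H and 2H were each pooled from 4 littermates, with a different litter for each. Region, litter and the pooling of animals therefore cannot be told apart. Cells were sorted for the surface protein ATP1B2 (recognized by the ACSA-2 antibody) and against the oligodendrocyte antigen O1 and a dye for dead cells. A single-cell library was made from each with the Smart-seq2 protocol, which reads full-length mRNA.

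Wnt proteins bind Frizzled receptors and LRP5 or LRP6, which stops the degradation of β-catenin by the complex of Axin, APC and GSK3. β-catenin then joins TCF/LEF factors at DNA, and Axin2 is a direct target that feeds back as an inhibitor. Secreted proteins such as Frzb, Sfrp1 and some Dickkopf members act outside the cell, and Norrin, the product of Ndp, is not a Wnt but activates the same pathway through Frizzled-4, LRP5 and Tspan12. In the brain the pathway is known for the growth and barrier properties of blood vessels and for the control of neural stem cells in the hippocampal dentate gyrus. Norrin made by glia is known from its part in the vessels of the retina.

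The members lie on different chromosomes of GRCm38, apart from Frzb and Lrp4, which share chromosome 2 (Frzb at chr2:80411970-80447625 on the minus strand, Lrp4 at chr2:91457511-91513779 on the plus strand). The other secreted proteins are encoded by Sfrp1 at chr8:23411502-23449632 (plus), Dkk3 at chr7:112116017-112159057 (minus) and Ndp at chrX:16885521-16911774 (minus). The proteins inside the cell are encoded by Daam2 at chr17:49456022-49564343 (minus), Axin2 at chr11:108920349-108950783 (plus), Tcf7l1 at chr6:72626378-72789254 (minus) and Tcf7l2 at chr19:55741820-55933654 (plus). The receptor Lgr6 is at chr1:134983301-135105276 (minus). Values are counts over all exons of a gene. The spans of Axin2, Tcf7l1 and Tcf7l2 overlap other annotated genes, and the library kit does not mark strand, so reads of Axin2 and Tcf7l1 cannot be told from reads of the antisense genes within them.

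The sequences before the start of the gene are shown for Ndp, found in every astrocyte subtype and nearly absent from the other types, and for Lgr6, the member with no count in AST4. RefSeq on GRCm38.p6 gave windows of 250 bases before to 50 bases after a start for 7 of the 10 members, 9 windows in all. They were searched on both strands for CTTTGAT, a TCF/LEF motif, and for CAGCTG, an E-box bound by basic helix-loop-helix factors, which reads the same on both strands and shares no overlap with the former. Capitals mark the E-box. The windows are chrX:16911725-16912024 for Ndp and chr1:135105227-135105526 for Lgr6, each on the minus strand and written 5′ to 3′.
Ndp: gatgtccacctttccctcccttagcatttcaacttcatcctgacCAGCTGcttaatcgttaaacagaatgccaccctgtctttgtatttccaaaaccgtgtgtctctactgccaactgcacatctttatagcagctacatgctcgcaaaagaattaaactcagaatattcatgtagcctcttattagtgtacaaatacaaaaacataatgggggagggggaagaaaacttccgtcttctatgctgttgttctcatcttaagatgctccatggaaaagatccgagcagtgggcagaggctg
Lgr6: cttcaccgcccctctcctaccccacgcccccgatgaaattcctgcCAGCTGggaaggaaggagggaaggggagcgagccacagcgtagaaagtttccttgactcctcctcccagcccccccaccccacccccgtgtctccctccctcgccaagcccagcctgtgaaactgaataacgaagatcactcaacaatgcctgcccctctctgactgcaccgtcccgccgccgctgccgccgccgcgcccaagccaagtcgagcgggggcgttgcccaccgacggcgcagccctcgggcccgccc
The E-box began at -206 from the start of Ndp and at -205 from that of Lgr6, whose RefSeq starts are those of the annotation used for the counts. The window of Frzb also held it, and these were the 3 windows of the 9 that did. The Frzb window is not shown, since its RefSeq start (chr2, 80447396) lies inside the gene span given above, so that most of the window falls in the annotated first exon. It was present in 16.3% of all 32851 windows. The TCF/LEF motif was in 0 of the 9 windows and in 3.73% of all windows. A match is a description of letters, and a window without a match says nothing about binding elsewhere.

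Of 2031 labelled cells, 2030 were analysed, with 600758 to 3238215 gene counts per cell (median 1458411). The authors' own types were used. In the copy of the type list used here 33 cells of 1C were not listed and 15 other cells had no type, and these cells entered no comparison. They give 657 AST1, 555 AST2, 452 AST3, 91 AST4 and 26 AST5 cells, 1781 astrocytes in all, beside mural cells (the largest other class), 30 endothelial, 17 neuronal, 11 microglial and 9 oligodendrocytic cells. AST1 lay mostly in hippocampus (545 cells in 1H and 2H together against 57 and 55 in 1C and 2C), AST2 in cortex (523 cells together against 10 and 22), and AST3 in both (31.8% of cortical and 17.9% of hippocampal astrocytes). AST4 had 41 and 48 hippocampal cells and 2 cortical cells. Counts were summed over the cells of a type in a suspension and given as CPM, counts scaled to the sum's total gene counts. A sum needed at least 5 cells, so AST4 is represented by 1H and 2H, and means ± SD are over suspensions. These replicates are suspensions, so p-values measure the spread between them and nothing wider, apart from the fit with a term for subtype described below. A set of 10 astrocyte markers was summed at 38922 to 48337 CPM in AST1, AST2 and AST3, at 36641 to 46340 CPM in AST5, at 34395 and 32181 CPM in AST4 and at 3170 to 3485 CPM in mural cells. All 10 markers had counts in both hippocampal AST4 sums.

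Over all astrocytes the members spanned 2 orders of magnitude when levels were taken per kilobase of exon. Dkk3 stood at 134.1 ± 14.3 CPM per kb and Ndp at 101.02 ± 6.73 CPM per kb (mean ± SD, n = 4 suspensions). Daam2 (16.9 ± 3.63), Tcf7l2 (14.6 ± 1.67), Lgr6 (11.8 ± 4.69) and Frzb (9.95 ± 11.1) came next on this scale. The Frzb mean joins low cortical and high hippocampal sums, so its place in this order holds in neither region. Lrp4 was at 6.91 ± 1.36, Sfrp1 at 3.83 ± 1.86, Tcf7l1 at 3.56 ± 0.816 and Axin2 at 1.13 ± 0.437 CPM per kb. The mean number of members with a count per cell was highest in AST4 (3.47), followed by AST3 (3.29), AST2 (2.89), AST1 (2.69) and AST5 (1.73), and was 0.948 in mural cells. This order is not independent of the choice of members, since Frzb, Sfrp1 and Dkk3 were chosen for AST4 and Daam2 for AST2. Later levels are CPM, compared within a gene, unless CPM per kb is stated.

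**Figure D1:**
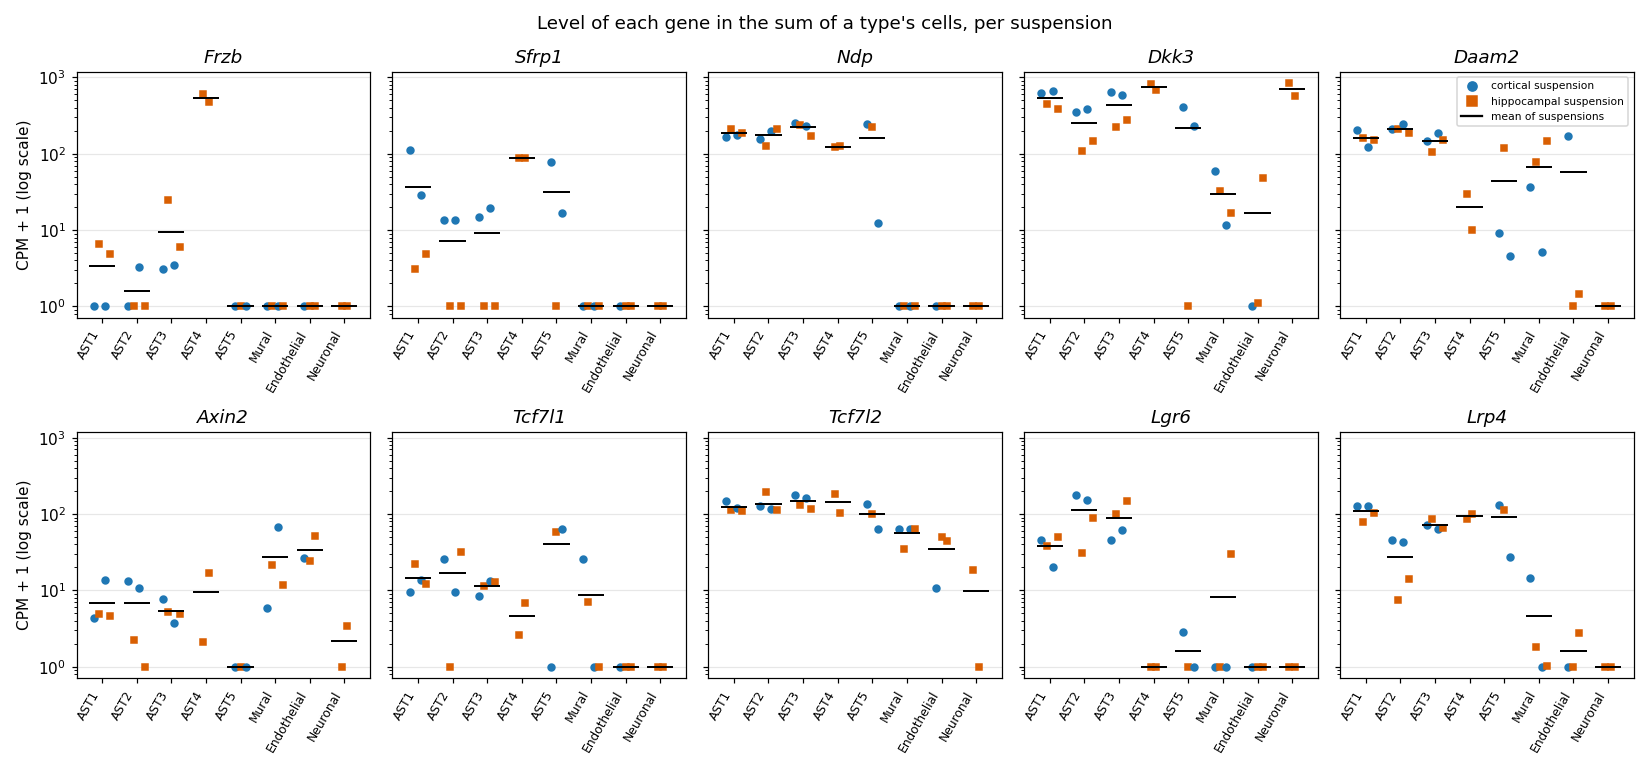
Level of each gene, as CPM + 1 on a log scale, in the summed cells of a type. Points are suspensions with at least 5 cells of the type (blue circles cortical, orange squares hippocampal) and bars are their means. Frzb sits at 602 and 471 CPM in AST4 and at 24.1 CPM or less in every other sum, while Ndp lies between 119.9 and 255.8 CPM in each sum of AST1 to AST4 and at 0.0278 CPM or less outside astrocytes.

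Frzb encodes a secreted Frizzled-related protein that binds Wnt ligands. It had 602 CPM in AST4 of 1H and 471 CPM in AST4 of 2H (537 ± 92.6, n = 2). The next type was AST3, with 2.09, 2.47, 24.1 and 5.08 CPM in 1C, 2C, 1H and 2H, and the ranges of AST4 and AST3 did not overlap. AST1 had 0.0115, 0, 5.61 and 3.81 CPM, AST2 had a count in 1 cell of 555, and AST5, endothelial and neuronal sums had none. Lower neighbours in the order overlapped.

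The AST4 level came from many cells: 25 of 41 in 1H and 28 of 48 in 2H had a Frzb count, and the largest cell held 11.3% and 8.20% of the sum. The pooled share was 53 of 91 cells (58.2%, Wilson 95% interval 48.0 to 67.8%), and 56.0% after thinning every cell to 50000 counts. In mural cells, the largest other class in the sort, it was 1 cell (0.746%), with 1 count. Median depth was 1405690 counts per cell in AST4 and 1216970 in mural cells. Within Frzb-positive AST4 cells the median was 775 CPM in 1H and 727 CPM in 2H. Of the 65 Frzb-positive cells of any type, 53 were AST4 (81.5%), 60 were hippocampal and 5 were cortical. Neither of the 2 cortical AST4 cells had a Frzb count.

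Marker lists of other cell types were read in the same AST4 sums. Of 13 neural stem and progenitor genes, 12 and 11 had counts in the AST4 sums of 1H and 2H, with summed levels of 993 and 885 CPM, against 316.7 to 850 CPM in AST1, AST2 and AST3. Of 7 fibroblast and meningeal markers, 6 were at 0 in 1H AST4 and none in 2H AST4, against 4 or 5 in each sum of AST1, AST2 and AST3. The summed levels were 0.0322 and 902 CPM, against 125.9 to 1141 CPM in AST1, AST2 and AST3. Of 6 ependymal and choroid plexus markers, 5 were at 0 in 1H AST4 and 1 in 2H AST4, against 3 to 5 in the sums of AST1, AST2 and AST3. The summed levels were 10.01 and 124.6 CPM, against 5.40 to 32.4 CPM in AST1, AST2 and AST3. Of 8 mural markers, 3 and 2 were at 0 (133.5 and 444.97 CPM, against 1.47 to 288.1 CPM). The part of these cells in the AST4 levels was not tested. In 2H, 2 AST4 cells carried Dcn, Lum, Col3a1 or Slc6a13. Without those 2 cells, a setting chosen after seeing the data, Frzb in 2H was 487 CPM. Without the 1 cell per suspension that had Mki67 or Top2a, which mark dividing cells, Frzb was at 624 and 464 CPM.

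Sfrp1, a second secreted Frizzled-related protein, was lower and less even. AST4 had 86.01 CPM in 1H and 87.1 CPM in 2H, with counts in 30 of 91 cells (32.97%, Wilson 24.2 to 43.1%). These sums rested on few cells, since the largest cell held 26.04% and 51.5% of them. Without the largest cell of each sum the AST4 mean was 54.4 CPM, and without the dividing cell the 2H value was 43.4 CPM. In AST1 the level was 110 and 27.7 CPM in 1C and 2C and 2.08 and 3.88 CPM in 1H and 2H, so the cortical sums were high, the hippocampal sums low, and AST1 overlapped AST4. The AST1 mean was 35.99 CPM, and 11.2 CPM without 1C. No mural cell had a count, which allows a share of up to 2.24%. This limit is 3 cells out of all cells of the type, as wherever a count of 0 is given, and it lies somewhat below the Wilson upper bound.

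Frzb and Sfrp1 were found together in 11 of 41 AST4 cells in 1H and in 10 of 48 in 2H. The products of their shares give 8.54 and 8.17 cells.

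Dkk3, a secreted protein of the Dickkopf family, had its highest levels in AST4 and in neurons. AST4 had 830 and 687 CPM in 1H and 2H and neurons 843 and 576 CPM, and the ranges of the 2 types overlapped. AST1 had 620, 668, 451 and 390 CPM in 1C, 2C, 1H and 2H, AST3 had 651, 584, 222.3 and 276.5 CPM, and AST2 had 354.8, 388, 108.1 and 144.5 CPM. In each of these 3 subtypes both cortical sums were above both hippocampal sums, which the comparison of regions addresses. Dkk3 had a count in 71 of 91 AST4 cells (78.0%), in 903 of 1781 astrocytes (50.7%) and in 5 mural cells (3.73%). A list of 6 neuronal markers summed to 70.6 and 21.5 CPM in AST4 of 1H and 2H, against 4654 and 4610 CPM in neurons. In AST1, AST2 and AST3 the sums ran from 0 to 29.8 CPM, below the AST4 sum of 1H.

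Ndp encodes Norrin, a ligand of Frizzled-4. Its level was close to even over the main subtypes, at 224.7 ± 36.6 CPM in AST3, 184.7 ± 19.5 in AST1 and 173.1 ± 38.8 in AST2 (n = 4 each), with overlapping ranges, and at 121.8 ± 2.70 CPM in AST4 (n = 2). The AST4 values of 119.9 and 123.7 CPM lay below every AST1 sum (165.1 to 211.04 CPM), every AST3 sum (172.1 to 255.8 CPM) and every AST2 sum (127.1 to 209.8 CPM). The sums of AST5, with 6 to 10 cells each, ran from 11.4 to 245.2 CPM. Ndp had a count in 652 of 1781 astrocytes (36.6%, Wilson 34.4 to 38.9%). Outside astrocytes it was nearly absent, with 1 count in 1 mural cell a count in 1 of 9 oligodendrocytic cells, and 0 of 30 endothelial and 0 of 17 neuronal cells, which allow up to 10% and 17.6%.

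The receptor genes for Norrin were picked for mention after their values were seen. Fzd4 was at 136.5 ± 146.8 CPM in endothelial sums and 40.1 ± 4.78 CPM over all astrocytes, Tspan12 at 414 ± 383 and 494 ± 115 CPM, and Lrp5 at 6.57 ± 6.17 and 2.36 ± 1.47 CPM. The spread between the 3 endothelial sums was as large as their means.

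Daam2, a formin that links Dishevelled to the actin cytoskeleton, was highest in AST2 at 209.6, 242.995, 210.5 and 187.5 CPM in 1C, 2C, 1H and 2H. AST1 had 120.4 to 202.9 CPM and AST3 105.5 to 186.8 CPM, so the AST2 and AST1 ranges overlapped. AST4 was far below, at 29.1 and 9.05 CPM, with counts in 15 of 91 cells (16.5%) against 66.1% of 555 AST2 cells. After thinning the shares were 8.79% and 56.0%. Mural sums ran from 4.19 to 145.5 CPM, and 36 mural cells (26.9%) had a count, so Daam2 was not restricted to astrocytes.

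Axin2, the scaffold of the β-catenin degradation complex that is itself induced by Wnt signals, had higher sums in endothelial cells than in astrocytes. In astrocytes it was lowest of the members per kilobase as a mean over suspensions, although Frzb was lower in cortex. Endothelial sums had 25.5, 23.1 and 51.2 CPM in 1C, 1H and 2H, and 13 of 30 cells had a count (43.3%, Wilson 27.4 to 60.8%). The largest cell held 98.1%, 67.1% and 79.4% of these sums, so the higher endothelial level rests mostly on 1 cell in each. Mural sums had 4.90, 67.5, 20.7 and 10.9 CPM in 1C, 2C, 1H and 2H, with a count in 37 cells (27.6%), and 99.3% of the 2C sum came from 1 cell. AST4 had 1.13 CPM in 1H and 16.1 CPM in 2H, AST1 had 3.32 to 12.8 CPM, AST2 0 to 12.2 CPM and AST3 2.73 to 6.62 CPM, so the subtypes overlapped, and 12.5% of astrocytes had a count. The thinned shares were 23.3% for endothelial cells, 16.4% for mural cells and 6.34% for astrocytes. Endothelial and mural levels overlapped each other, and the mural sums of 1C and 2H lay within the astrocyte range, which reached 16.1 CPM.

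The TCF factors divided into an abundant and a scarce gene. Tcf7l2 was spread evenly over astrocytes, with means of 145.2 ± 28.3 CPM in AST3, 143.4 ± 58.0 in AST4, 136.02 ± 38.5 in AST2 and 122.5 ± 17.5 in AST1, and neighbours overlapped down to AST5 (98.8 ± 35.8). Mural sums were lower, at 56.1 ± 14.7 CPM, although the highest mural sum (63.51 CPM) and the lowest AST5 sum (63.59 CPM) were nearly equal. Tcf7l2 had a count in 1110 of 1781 astrocytes (62.3%). Tcf7l1, mainly a repressor of Wnt targets, was at 13.4 ± 5.51 CPM in AST1, 16.02 ± 14.3 in AST2 and 10.5 ± 2.27 in AST3, with counts in 9.94% of astrocytes. Its AST4 sums of 1.58 and 5.76 CPM lay below every AST1 and AST3 sum but within the AST2 range (0 to 31.2 CPM), and its AST5 values came from 2 cells.

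Lgr6, a receptor of R-spondins, which raise Wnt receptor levels at the membrane, had no count in any of the 91 AST4 cells, which allows a share of up to 3.30%. It had a count in 31.9% of 555 AST2 cells, 85 of 452 AST3 cells (18.8%) and 58 of 657 AST1 cells (8.83%). In AST2 the level was 176.99, 153.8, 29.8 and 87.96 CPM in 1C, 2C, 1H and 2H, and in AST3 44.4, 60.7, 98.01 and 146.4 CPM. The region with the higher sums was thus cortex in AST2 and hippocampus in AST3.

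Lrp4, known as the agrin receptor and as a negative modulator of Wnt signalling, was at 126.1, 127.6, 78.3 and 101.5 CPM in AST1 of 1C, 2C, 1H and 2H and at 86.2 and 99.2 CPM in AST4. AST3 had 62.3 to 85.1 CPM and AST2 a mean of 26.2 ± 19.2 CPM, and these 2 ranges did not overlap. A count was found in 43 of 91 AST4 cells (47.3%) and in 26.8% of 555 AST2 cells.

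**Figure D2:**
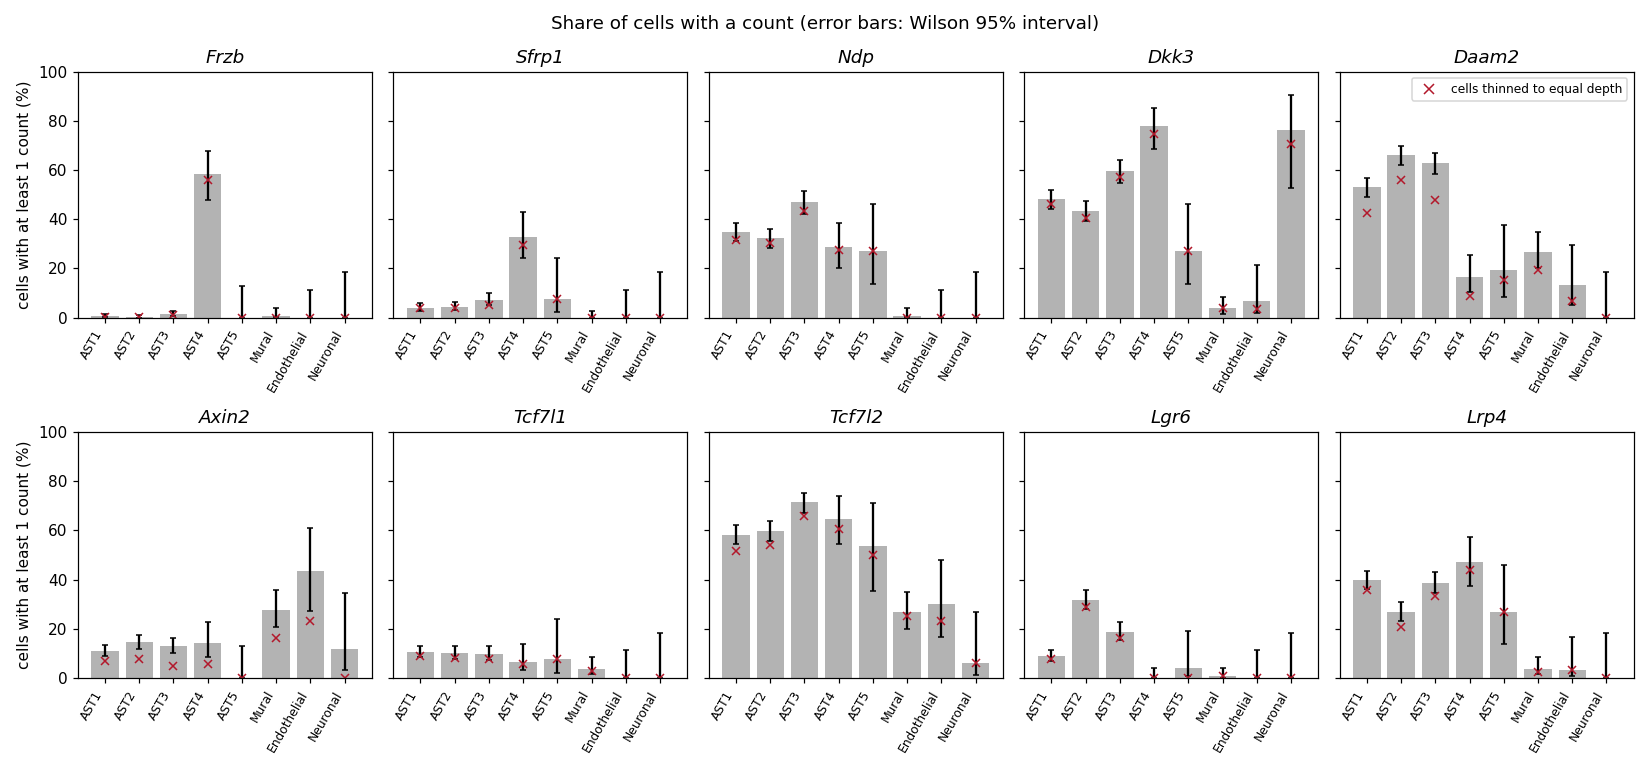
Share of cells with at least 1 count of each gene, in percent, by cell type over all suspensions. Grey bars are the shares, error bars their Wilson 95% intervals, and red crosses the shares after each cell was thinned to 50000 counts. Frzb reaches 58.2% in AST4 and at most 1.33% in another type shown, Lgr6 is at 0 in AST4, and Axin2 is highest in endothelial cells at 43.3%.

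The part of each gene's astrocyte counts that came from a subtype was set beside that subtype's part of all gene counts. In hippocampus AST4 made up 10.8% of astrocytes and 10.7% of their gene counts. It held 90.8% of the Frzb counts, 82.7% of Sfrp1, 19.6% of Dkk3 and 0 of Lgr6. Its part of the Axin2 counts was 3.20% in 1H and 37.4% in 2H, and that of Daam2 2.15% and 0.760%. In cortex AST2 made up 54.5% of astrocytes and 51.7% of their gene counts. It held 79.1% of the Lgr6 counts, 69.1% of Axin2, 60.3% of Daam2 and 36.2% of Lrp4.

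The genes whose levels were most like those of a member were found by Pearson correlation of log2(CPM + 1) over the 26 sums, among 13712 genes. Sums of 1 suspension share its preparation, so these values are descriptions without a test. The sums include mural, endothelial and neuronal ones beside astrocytes. A high value can therefore reflect astrocytes against other types and need not hold among astrocytes. Closest to Frzb were Ldb2 (r = 0.95), Pigz (0.93) and Aff3 (0.90). Closest to Ndp were Lcat, Eva1a and Ptprz1 (0.98 each), and to Lrp4 Mlc1 (0.95), S100a6 (0.94) and Ccdc190 (0.94). Tcf7l2 was closest to Gm2a (0.94), Msmo1 (0.88) and Fxyd1 (0.87), and Lgr6 to Kif21b, Nat8f5 and Hrh1 (0.92 each). Dkk3 was closest to Ttc4 (0.89), Itm2c (0.87) and Mrpl45 (0.87), Daam2 to Slc20a1 (0.88), Glrx (0.86) and Sidt2 (0.85), and Axin2 to Polk (0.88), Dock6 (0.83) and Apcdd1 (0.83). Tcf7l1 was closest to Gm15417 (0.87), Mrs2 (0.87) and Sap30l (0.86), and Sfrp1 to mt-Tc, Proca1 (0.82 each) and Dennd4b (0.81). Between members the highest value was for Ndp and Lrp4 (0.91), followed by Daam2 and Lgr6 (0.73), and the lowest for Ndp and Axin2 (-0.43). Frzb and Sfrp1 had 0.44.

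Cortex and hippocampus were then compared over the suspensions with the quasi-likelihood test of edgeR, fitted to all genes, first for the sums of all astrocytes. No gene of 19160 passed an adjusted p of 0.05 (0% called), and so none of the 10 members did. At an unadjusted p under 0.05 there were 2609 genes (13.6%) and 5 members (Frzb, Dkk3, Daam2, Lgr6 and Lrp4). The regions did not overlap in the normalized CPM of 8 of 10 members, all but Ndp and Tcf7l1, against 45.7% of all genes. The test of DESeq2 called 7 of 10 members, against 17.8% of all genes. These were Frzb, Sfrp1, Dkk3, Daam2, Axin2, Lgr6 and Lrp4. Frzb, Sfrp1 and Dkk3 were chosen for AST4, of which 89 of the 91 cells were hippocampal, and Daam2 for AST2, of which 523 of 555 were cortical. Counts of members and the differences of these genes over all astrocytes are thus not independent of that choice and are given as a description.

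Frzb was at 0.754 and 2.09 normalized CPM in 1C and 2C and at 69.5 and 57.5 CPM in 1H and 2H. Both hippocampal sums were high, and the log2 difference (hippocampus minus cortex) was 5.48 (SE 0.66, edgeR adjusted p = 0.176). It was 4.92 without 1C and 6.39 without 2C. Hippocampal Frzb was higher in 8 of 8 sequencing pools, each of which held a plate of every suspension. Pools divide the cells of the same suspensions, so the tallies of pools, here and below, are not independent replicates. AST4 had 2 cells in cortex and held 90.8% of the Frzb counts of hippocampal astrocytes. A fit to the sums of AST1, AST2 and AST3 with a term for subtype leaves AST4 out. It gave a log2 difference of 2.66 (SE 3.66, edgeR adjusted p = 1.00) and says nothing of the AST4 part. This fit takes the sums of a suspension as separate replicates, so its p-values do not measure the spread between suspensions.

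Lrp4 was also higher in both hippocampal suspensions, at 79.8 and 89.97 normalized CPM against 63.7 and 57.1 in cortex (log2 difference 0.49, SE 0.13, edgeR adjusted p = 0.254), and in 7 of 8 pools. With a term for subtype the log2 difference turned to -0.79. With equal numbers of AST1, AST2 and AST3 cells, again without AST4, it was -0.00198 (SE 0.395). The smallest of these subtypes in a suspension set that number. It was AST2 in 1H and 2H (10 and 22 cells) and AST1 in 1C and 2C (57 and 55 cells).

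Daam2 was at 177.9 and 208.2 CPM in cortex and 138.1 and 136.6 CPM in hippocampus (log2 difference -0.49, SE 0.11, edgeR adjusted p = 0.232) and was higher in hippocampus in 0 of 8 pools. With equal numbers of AST1, AST2 and AST3 cells the log2 difference of Daam2 was -0.09, and with a term for subtype -0.22. Lgr6 had 106.8 and 106.2 against 43.6 and 64.9 CPM (-0.97, SE 0.23, edgeR adjusted p = 0.238) and was higher in hippocampus in 1 of 8 pools, but a term for subtype turned the difference to 0.08. Axin2 had 8.67 and 7.55 against 3.60 and 4.93 CPM (-0.93, SE 0.37, edgeR adjusted p = 0.415), with 0 of 8 pools higher in hippocampus. Sfrp1 had 27.9 and 16.2 against 10.2 and 12.5 CPM (-0.96, SE 0.36, edgeR adjusted p = 0.393) and was higher in hippocampus in 1 of 8 pools. With equal numbers of cells and with the term for subtype, Sfrp1 was lower still in hippocampus. Both settings leave out AST4, which held 82.7% of the Sfrp1 counts of hippocampal astrocytes. The hippocampal AST2 and AST3 sums had no count, so those estimates are not given. In these 4 genes both cortical sums were above both hippocampal ones.

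Dkk3 differed less, with 487 and 482 CPM in cortex and 439 and 393 in hippocampus (log2 difference -0.22, SE 0.08, edgeR adjusted p = 0.365). With equal numbers of AST1, AST2 and AST3 cells its log2 difference was -1.21 (edgeR adjusted p = 0.425). With a term for subtype it was -1.16 (edgeR adjusted p = 0.0768), from the fit that takes the sums of a suspension as separate replicates. Dkk3 was higher in hippocampus in 3 of 8 pools. Tcf7l2 had 144.3 and 130.1 against 125.3 and 112.6 CPM (-0.21, SE 0.11, edgeR adjusted p = 0.549), with 2 of 8 pools higher in hippocampus. The regions overlapped for Ndp, at 190.7, 206.1, 206.9 and 179.9 CPM in 1C, 2C, 1H and 2H (-0.04, SE 0.11, edgeR adjusted p = 0.969), and for Tcf7l1, at 15.6, 10.98, 17.6 and 11.7 CPM (0.13, SE 0.35, edgeR adjusted p = 0.963), and 4 and 5 of 8 pools, respectively, were higher in hippocampus.

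**Figure D3:**
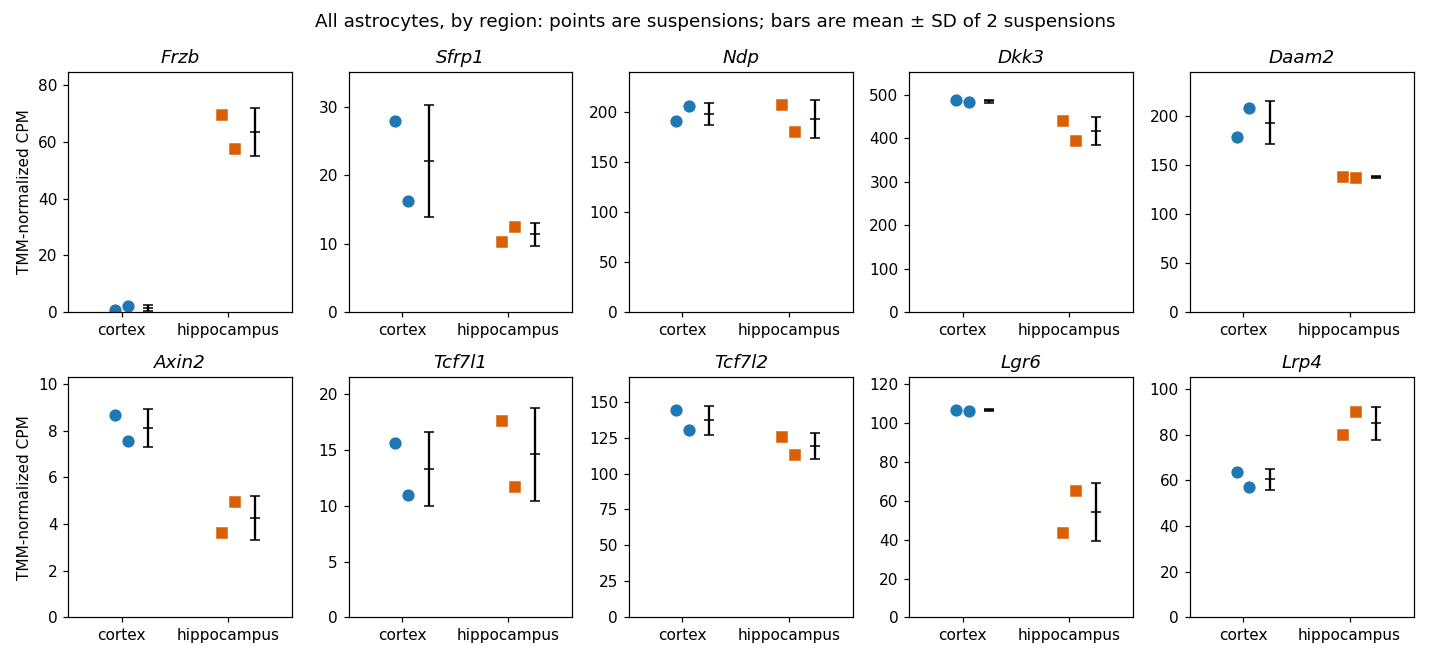
Normalized CPM of each gene in all astrocytes by region. Points are the 2 suspensions of a region and black bars their mean ± SD, and every axis starts at 0. Frzb is at 69.5 and 57.5 CPM in hippocampus and at 2.09 CPM or less in cortex, while the suspensions of both regions overlap for Ndp and Tcf7l1.

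Within subtypes the question was whether cells given the same name differ by region. In AST1 edgeR called 0% of 15521 genes and 0 of 10 members (3 of 10 at an unadjusted p under 0.05, against 13.03% of all genes). The regions did not overlap for 6 of 10 members, against 42.7% of genes, and DESeq2 called 3 (Frzb, Sfrp1 and Dkk3), against 17.5% of genes. Frzb had counts there in 1 cortical AST1 cell and in 3 of 545 hippocampal ones. In AST2 edgeR called 0% of 14847 genes and 0 of 9 members tested (2 at an unadjusted p under 0.05, against 23.3%). The regions did not overlap for 6 of 9, against 53.5%, and DESeq2 called 3 (Sfrp1, Dkk3 and Lrp4), against 29.2%. In AST3 edgeR called 0% of 14960 genes and 0 of 10 members (3 at an unadjusted p under 0.05, against 10.3%). The regions did not overlap for 5 of 10, against 41%, and DESeq2 called 4 (Frzb, Sfrp1, Dkk3 and Lgr6), against 13.8%. In mural cells edgeR called 0% of 10614 genes and 0 of 6 members (0 at an unadjusted p under 0.05, against 9.05%). The regions did not overlap for 1 of 6, against 37.4%, and DESeq2 called 0, against 12.9%. Sfrp1 had no count in the hippocampal sums of AST2 and AST3, so its results there rest on those sums and are a description. The median log2 difference over all genes was 0.10 in AST1, -0.62 in AST2, -0.04 in AST3 and 0.24 in mural cells.

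Dkk3 was lower in hippocampus in all 3 subtypes. In AST1 it had 602 and 673 normalized CPM in 1C and 2C against 454 and 397 in 1H and 2H (log2 difference -0.58, SE 0.13, edgeR adjusted p = 0.257). In AST2 it had 365.8 and 407 against 97.4 and 148.1 CPM (-1.66, SE 0.32, edgeR adjusted p = 0.139), and in AST3 636 and 576 against 224.02 and 284.6 CPM (-1.25, SE 0.16, edgeR adjusted p = 0.380). The 4 sums of each subtype fell into separate ranges by region. The difference over all astrocytes was smaller than in any of these subtypes, and the cause was not tested. The hippocampal AST2 sums rest on few cells with a count, 2 of 10 in 1H and 5 of 22 in 2H.

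Sfrp1 was found in cortical cells of every main subtype and in hippocampus mostly in AST4. In AST3 it had counts in 17 and 15 cells of 1C and 2C and in 0 of 65 and 0 of 82 cells of 1H and 2H, which together allow a share of up to 2.04%. In AST2 it had counts in 11 and 14 cells against 0 of 10 and 0 of 22 cells, where 0 of 32 allows up to 9.38%. In AST1 the levels were 107.2 and 27.8 against 2.09 and 3.95 normalized CPM (log2 difference -4.48, SE 0.94, edgeR adjusted p = 0.257). It was -3.21 without 1C and -5.15 without 2C. The DESeq2 adjusted p of this AST1 difference was 5.60e-07. No fold is given for AST2 and AST3, whose hippocampal sums had no count.

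The Lgr6 sums of the regions lay in opposite order in AST2 and AST3. In AST2 it had 182.4 and 161.6 normalized CPM in cortex and 26.8 and 90.1 in hippocampus (log2 difference -1.56, SE 0.73, edgeR adjusted p = 0.372). In AST3 it had 43.4 and 59.9 against 98.8 and 150.7 CPM (1.27, SE 0.33, edgeR adjusted p = 0.380). The difference between these 2 subtypes was not tested.

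Lrp4 in AST2 had 45.4 and 43.5 normalized CPM in cortex and 5.92 and 13.3 in hippocampus (log2 difference -2.21, SE 1.302, edgeR adjusted p = 0.512), the latter from 1 of 10 and 3 of 22 cells. In AST1 it had 122.5 and 128.4 against 78.7 and 103.3 CPM (-0.46, SE 0.23, edgeR adjusted p = 0.614). In AST3 the regions overlapped, at 68.7 and 61.5 CPM in cortex and 85.8 and 65.99 CPM in hippocampus (0.22, SE 0.25, edgeR adjusted p = 0.968). Lrp4 was thus lower in the hippocampal sums of AST1 and AST2 and higher in those of all astrocytes, and the cause was not tested.

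Ndp in AST1 was slightly higher in both hippocampal sums, at 160.3 and 177.8 normalized CPM in cortex and 212.1 and 189.6 in hippocampus (log2 difference 0.25, SE 0.17, edgeR adjusted p = 0.794). Tcf7l2 in AST3 had 173.7 and 156.7 against 129.8 and 118.8 CPM (-0.41, SE 0.16, edgeR adjusted p = 0.542). Frzb in AST3 had 2.04 and 2.44 against 24.3 and 5.23 CPM (2.72, SE 1.15, edgeR adjusted p = 0.581), from 3 cells in each region. Daam2 in mural cells had 35.2 and 3.84 against 80.9 and 152.6 CPM (2.58, SE 1.45, edgeR adjusted p = 1.00), with 9 of 27 and 2 of 12 cortical cells against 11 of 48 and 14 of 47 hippocampal cells.

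Whether the region difference itself differed between AST1 and AST3 was tested in a fit over both. edgeR called 0% of 17213 genes and 0 of 10 members, with 1 member (Sfrp1) at an unadjusted p under 0.05 against 3.75% of genes. DESeq2 called 2 members (Frzb and Sfrp1), against 11.1% of the 16879 genes to which it gave an adjusted p. Frzb had counts in few cells of either subtype, as given above. Sfrp1 had no count in either hippocampal AST3 sum, so its results in this fit rest on those sums and are a description. No fold is given for it. For Dkk3 the AST1 difference minus the AST3 difference was 0.68 (SE 0.26, edgeR adjusted p = 0.777), for Lrp4 -0.68 (SE 0.40, edgeR adjusted p = 0.825) and for Ndp 0.46 (SE 0.24, edgeR adjusted p = 0.787).

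**Figure D4:**
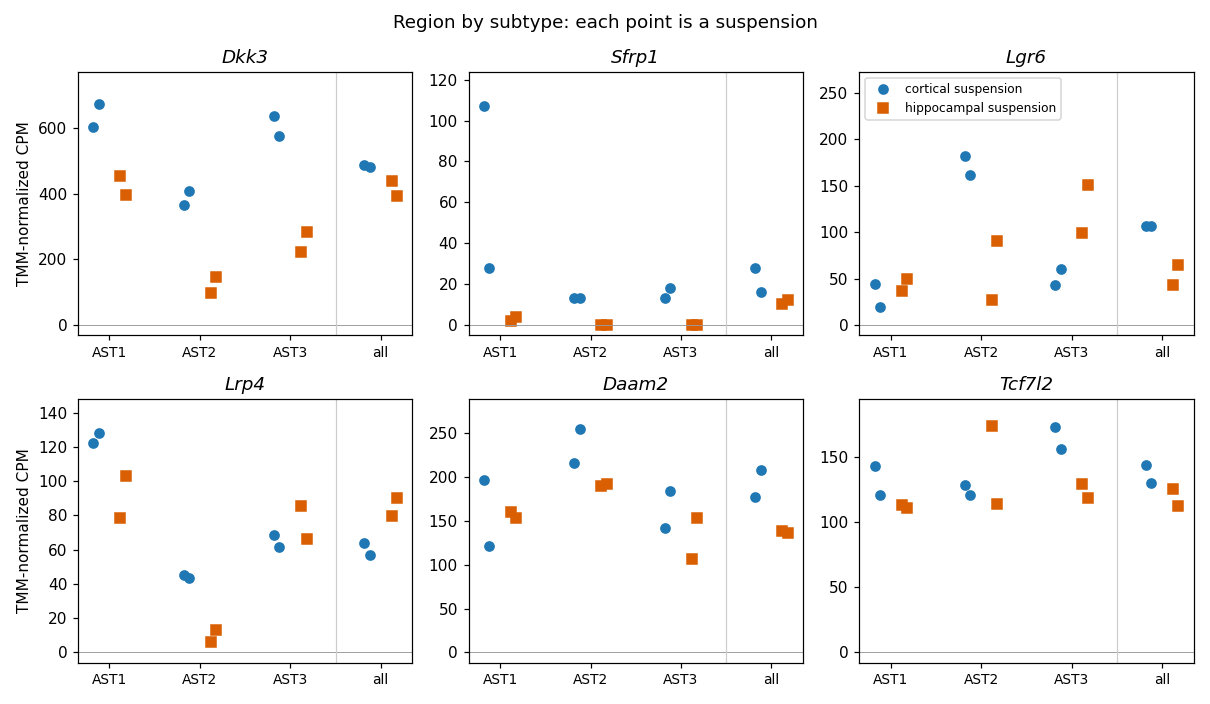
Normalized CPM of 6 genes in AST1, AST2, AST3 and all astrocytes. Points are suspensions (blue circles cortical, orange squares hippocampal), and the grey line sets all astrocytes apart. Dkk3 is lower in both hippocampal suspensions in each subtype, Lgr6 is lower there in AST2 and higher in AST3, and Lrp4 is lower in AST1 and AST2 but higher over all astrocytes.

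The other genes of the pathway were taken from lists by role, and 62 of them that are not members were tested in all astrocytes. edgeR called 0 of 62, with 17 at an unadjusted p under 0.05 (13.6% of all genes), and DESeq2 called 18 (17.8% of all genes). Of 8 ligands tested 6 had higher and 2 lower estimates in hippocampus (median log2 difference 1.57, against 0.01 over all genes). The 6 with higher estimates were at low levels, with a mean of at most 7.55 normalized CPM in either region. In AST1, AST2 and AST3, 4, 5 and 4 ligands were tested, with medians of -0.22, -0.59 and 0.95. The medians over all genes there were 0.10, -0.62 and -0.04. For 16 receptors and coreceptors the split was 8 and 8 (median -0.01), and for 12 target genes beside Axin2 it was 3 and 9 (median -1.01). The 14 cytoplasmic genes split 6 and 8 (median -0.08), the 6 TCF/LEF factors and coactivators 1 and 5 (-0.30), the 5 genes of the R-spondin group 3 and 2 (0.01), the 3 secreted inhibitors 1 and 2 (-2.47) and the 3 partners of Lrp4 2 and 1 (0.05). The median of the inhibitors is the value of Notum (SE 2.87), which was low, at means of 1.04 normalized CPM in cortex and 0.187 in hippocampus. That of the target genes lies between the values of Sp5 (SE 2.91) and Tcf7 (SE 1.63), which were also low. Sp5 had means of 1.11 CPM in cortex and 0.561 in hippocampus, and Tcf7 1.92 and 0.943. The regions overlapped for both.

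The ligands with the highest levels in astrocytes were Wnt7b, at 42.4 ± 6.68 CPM per kb, and Wnt7a, at 38.2 ± 14.3 CPM per kb (mean ± SD, n = 4). Both were at 0 in endothelial sums. Wnt7a had 154.7 and 163.3 normalized CPM in cortex against 87.7 and 78.0 in hippocampus (log2 difference -0.94, SE 0.10, edgeR adjusted p = 0.164), and Wnt7b 226.1 and 241.8 against 184.5 and 178.5 CPM (-0.37, SE 0.08, edgeR adjusted p = 0.231). Within AST1, AST2 and AST3 the log2 differences were -0.06, -0.59 and -0.01 for Wnt7b and -0.38, -0.42 and -0.92 for Wnt7a. In AST2 the median over all genes was -0.62. Among receptors Tspan12 led with 149.2 ± 34.8 CPM per kb, followed by Fzd9 at 81.9 ± 9.25 CPM per kb. Fzd9 was at 278.9 CPM in AST2 and 13.9 CPM in AST4.

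Of the R-spondin group Lgr4, the relative of Lgr6, had 59.04 ± 7.19 CPM per kb, and Znrf3, a ligase that removes Frizzled receptors, 39.03 ± 8.62 CPM per kb. Unlike Lgr6, Lgr4 had counts in AST4, at 116.9 ± 33.4 CPM. Of the inhibitors that are not members, Sfrp5 had 7.53 ± 8.08 CPM per kb and Sfrp4 1.13 ± 0.543 CPM per kb. Sfrp5 had 29.7 and 24.7 normalized CPM in cortex against 1.33 and 1.03 in hippocampus (log2 difference -4.53, SE 0.31, edgeR adjusted p = 0.135). Dkk1, Dkk2, Dkk4 and Sost, named after their values were seen, had no count in any astrocyte.

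Of the cytoplasmic genes Gsk3b (36.2 ± 2.03 CPM per kb) and Ctnnbip1 (18.7 ± 5.01 CPM per kb) were highest, and Apc had 12.5 ± 1.27 CPM per kb. The coactivators were led by Pygo2 (7.62 ± 1.34 CPM per kb) and Bcl9 (2.29 ± 0.173 CPM per kb). Of the target genes Tnfrsf19, at 65.5 ± 14.7 CPM per kb, and Znrf3 were highest. For Lrp4 the partners Dok7 and Agrn were at 21.8 ± 6.92 and 6.92 ± 1.0999 CPM per kb, and Dok7 at 199.2 ± 42.7 CPM in AST2, the subtype in which Lrp4 was lowest among AST1 to AST4.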

How the data were processed

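Single cells of adult mouse cortex and hippocampus were sequenced by the authors from Smart-seq2 libraries without molecular identifiers. Per the submitters' processing notes, reads were checked with FastQC 0.11.4, aligned with STAR 2.5.2b to GRCm38.p5 and assigned to genes with HTSeq. Whole, unnormalized counts of reads were deposited for each gene. Intervals and limits of shares treat cells as independent and leave out the spread between suspensions. Reads outside annotated exons (median 11.7% of reads per cell) were left out of library sizes. Of 2031 labelled cells, 1 was not analysed here, 33 cells of suspension 1C were not in the copy of the type list used, 15 had no type, and 2023 columns of the series-wide table that were not needed were not used. The members and lists were chosen with earlier results of these data known.

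Counts were summed per type and suspension (at least 5 cells) and given as CPM. Regions were compared with the quasi-likelihood test of edgeR 4.0.16 (R 4.3.3) on sums scaled by TMM, over all genes passing its low-count filter, with Benjamini-Hochberg adjustment and a threshold of 0.05. DESeq2 1.42.0, limma 3.58.1, thinning to 50000 counts per cell, other filters and left-out suspensions were alternatives. The region fits were tested on simulated data, and the fit of AST1 against AST3 was not. With 200 genes changed by a log2 difference of 2, 137 were recovered in all astrocytes, 33 in AST1, 48 in AST3, 0 in AST2 and 0 in mural cells. Unchanged genes called were 13 in all astrocytes, 4 in AST1, 4 in AST3, 0 in AST2 and 4 in mural cells. The changed genes were drawn from those with a mean over 5 CPM, so recovery at lower levels was not tested. Named genes were all members, the 2 highest genes of each list in astrocytes (by CPM or CPM per kilobase) and the 3 genes most like each member. Others are said to be chosen after their values were seen, apart from markers set beside a level.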

Additional observations from a re-analysis of the deposited data

Results flagged for a closer look

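In 39 groups of 4 suspension sums, 9 held a sum that lay far from the others by Dixon's criterion, which chance alone meets in about 1 group in 20. That rate does not hold for groups of 3 zeros and 1 other value (Frzb in AST2 and mural cells, Ndp and Lgr6 in mural cells). Frzb was highest in 2C for AST2 (2.28 CPM, 1 cell), in 1H for AST3 (24.1 CPM, 2 cells) and in 1H for mural cells (0.0153 CPM, 1 cell). Ndp was highest in 1C for mural cells (0.0278 CPM, 1 cell) and Axin2 in 2C for AST1 (12.8 CPM). Tcf7l2 was highest in 1H for AST2 (193.1 CPM, from 6 of 10 cells) and lowest in 1H for mural cells (34.01 CPM). Among mural sums Lgr6 stood apart in 2H (28.8 CPM, 1 cell) and Lrp4 in 1C (13.4 CPM, 2 cells).

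For 2 members the regions did not overlap in normalized CPM and lay in opposite order in 2 cell types, and the difference between the types was not tested. The log2 difference (hippocampus minus cortex) of Daam2 was -0.30 in AST2 and 2.58 in mural cells, but without the normalization factors the AST2 sums of the regions overlapped (209.6 and 242.995 CPM in cortex, 210.5 and 187.5 CPM in hippocampus). That of Lgr6 was -1.56 in AST2 and 1.27 in AST3.

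The 33 cells of 1C that were not in the type list used and the 15 cells without a type were in no comparison. Among them Tcf7l2 had a count in 28 cells, Daam2 in 23, Ndp in 16, Dkk3 in 15, Lgr6 in 8, Lrp4 in 7, Tcf7l1 in 5, Axin2 in 4 and Sfrp1 in 1.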

How the results depend on the processing

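The number of members called by region depended on the tool, from 0 by edgeR in each comparison to 7 by DESeq2 in all astrocytes, 3 in AST1, 3 in AST2, 4 in AST3 and 2 for AST1 against AST3. DESeq2 called 18 of the other Wnt pathway genes in all astrocytes. With cells thinned to equal depth edgeR called 1 member (Frzb, adjusted p = 0.0143) and 4 other pathway genes in all astrocytes, as it did 1.40% of 14905 genes, and limma on the mean of cells called 1 member in AST2, among 1589 of 14847 genes. Leaving out 1 suspension gave 0 to 6 members in AST2, with 3 called without Hippocampus replicate 1 (2388 of 18405 genes) and 6 without Hippocampus replicate 2 (6296 of 18318 genes). The single remaining hippocampal sum is then assumed to vary like the others. Numbers of suspensions do not pair them (correlations of deviations -0.01 to 0.02), and the replicate block called 0 members in each comparison. The fit for AST1 against AST3 without a replicate block also called 0.

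Log2 differences turned in a few settings. In all astrocytes Ndp was at 0.107 with cells from 0 freeze-thaw cycles of the template-switching oligonucleotide and at -0.14 to 0.061 with 1 suspension left out, and Tcf7l1 at -0.19 to 0.41 with 1 left out. With AST4 and AST5 left out, a term for subtype gave 0.085 for Lgr6 and -0.79 for Lrp4, and equal numbers of AST1, AST2 and AST3 cells gave -0.00198 for Lrp4. Lrp4 in AST1 was at 0.29 with cells from 1 cycle, Daam2 in AST2 at 0.082 by limma, and Lgr6 for AST1 against AST3 at -1.53 to 0.12 with 1 suspension left out. Of 29 region differences 7 moved by over 1.5 times with 1 suspension left out. Beside Frzb in all astrocytes (6.39 without 2C), Sfrp1 in AST1 (-3.21 without 1C, -5.15 without 2C) and Lgr6 for AST1 against AST3 (0.12 without 1C, -1.53 without 2C), these were Lgr6 in AST2 (-0.95 without 1H, -2.70 without 2H), Lrp4 in AST2 (-2.93 without 2H), Frzb in AST3 (1.23 without 1H, 3.45 without 2H) and Daam2 in mural cells (4.92 without 1C, 1.74 without 2C). The cause was not tested. The fits with cells from 1 cycle were not run for AST2 and mural cells, which had too few such cells. Levels moved by more than the spread between suspensions in 11 of 80 cases without the largest cell and in 3 of 80 after thinning, and shares of cells in 21 of 80 after thinning and in 12 of 80 when at least 10 counts were asked for. Depth and the number of cells limit what a count of 0 shows.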
